A study of Arabidopsis thaliana with 62 samples.

Results

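The large single-copy region of the Arabidopsis thaliana plastid genome holds most of its photosynthesis genes, and the stretches between those genes carry the promoters, leaders and trailers of its operons. These stretches were studied as 50-bp bins tiling positions 1 to 84000 (TAIR10 coordinates). A bin was kept when it touched no protein, tRNA or rRNA gene of the plastid annotation, introns counted as gene. Of the 1680 bins of the region, 498 were intergenic and 1182 touched a gene. The 498 bins lay in 71 spacers and were part of 2591 bins tested across the genome without the second copy of the inverted repeat. No measured depth entered the choice of bins.

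Plastid genes are transcribed by a bacterial-type RNA polymerase encoded in the plastid and by phage-type polymerases imported from the nucleus. The bacterial-type enzyme recognises promoters through sigma factors, which are nuclear-encoded. Sigma factor 2 is known for the transcription of several tRNA genes, among them trnE, whose product serves both translation and the first step of chlorophyll and heme synthesis. Sigma factor 6 acts on many photosynthesis promoters in young seedlings. Plastid DNA is packed with proteins into nucleoids, which can be tied to the thylakoid membrane or lie in the stroma. Intergenic bins next to gene starts are where transcription initiates, while bins far from any start can still lie inside a transcribed operon or trailer.

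Each library is the DNA of a membrane or a stroma fraction of chloroplast material crosslinked with 4% formaldehyde for 4 h, an assay that the labels call SOLINA. Part 1 holds 30 libraries, 3 for each fraction of 5 conditions. The seedling conditions, all aged 4 days, were wild-type Col0 plus the mutants sig2-2 and sig6-1, in which the genes of sigma factors 2 and 6 are mutated. The leaf conditions came from wild-type plants aged 14 days: Day was sampled 2 h after light onset, and Night once darkness had lasted 24 h. Part 2 gave 31 usable libraries, again from seedlings aged 4 days. Its genotypes were Col0, sig2-2 and a pair of chlorophyll synthesis mutants, chl27 and chlm. It had 4 libraries for each fraction except chlm stroma, which had 3. In part 1 the protocol describes chloroplasts isolated before crosslinking, and in part 2 it describes whole seedlings crosslinked before grinding, so each part was fitted alone. The genotype of part 2 samples rests on their titles, since another label field gives wild type throughout. Each mutant was represented by 1 line. Nothing in the labels says that every replicate came from a separate culture, so p-values measure the spread between these libraries, which may be technical.

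The depth of a bin was divided by the mean depth of its library, so that 1 is the genome-wide mean, and this quantity is called scaled depth below. Mean depth ran from 95.4 to 1596 reads per position in part 1 (median 368.8) and from 298.9 to 4598 in part 2. Every membrane library was shallower than every stroma library of its condition in Day, Night and in Col0, chl27 and chlm of part 2. In Col0 of part 2, membrane had 379 to 924 and stroma 1936 to 4528. Fraction and depth cannot be told apart in these conditions, while in the others the depths of the fractions overlapped. Fractions were compared on log2(scaled depth + 0.01) with limma, all libraries of a part in 1 fit, and a bin was called at a Benjamini-Hochberg adjusted p under 0.05 over all 2591 bins. A positive log2 difference means more scaled depth in membrane than in stroma. Neighbouring bins share DNA fragments and are not independent, so counts of bins are descriptions of extent.

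Intergenic bins had less scaled depth than genic bins in both parts. The median over libraries and bins was 0.557 in part 1 and 0.871 in part 2, against 0.910 and 1.02 for genic bins of the same region. In part 1, 207 intergenic bins lay under 0.5 and 44 above 1, and in part 2 these numbers were 42 and 130. The lowest bins clustered in the spacer between trnS (ArthCt091) and trnG (ArthCt092), where positions 8001 to 8050 had a mean of 0.0287 in part 1 and 0.091 in part 2. The highest bin, at 29751 to 29800 on the 3′ side of trnD, the aspartate tRNA gene, reached 1.70 and 1.32. Depth was lower close to gene starts: bins centred 1 to 150 bp upstream of the nearest start had a median of 0.503 in part 1 and 0.822 in part 2, against 0.569 and 0.891 for bins more than 600 bp away and 0.651 and 0.941 for bins flanked by gene ends only.

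The ratio of the intergenic median to the genic median differed between conditions and fractions. In part 1 it was 0.609 ± 0.016 in Col0 membrane and 0.483 ± 0.026 in Col0 stroma (SD, n = 3 each), whereas Day leaves had 0.837 ± 0.039 and 0.863 ± 0.052. In sig2-2 of part 1 the order of the fraction means turned, with 0.467 ± 0.066 in membrane and 0.589 ± 0.207 in stroma. The 3 stroma libraries lay at 0.812, 0.553 and 0.404 and the membrane libraries at 0.429, 0.543 and 0.428, which overlap. In sig2-2 of part 2 it was 0.906 ± 0.133 in membrane and 0.720 ± 0.181 in stroma (n = 4 each). This ratio is a property of a whole library. Its fraction difference runs the same way as the distance between intergenic and genic medians in Col0 and sig2-2, and both summarise the same depths. Its part in the counts below was not tested.

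**Figure D1:**
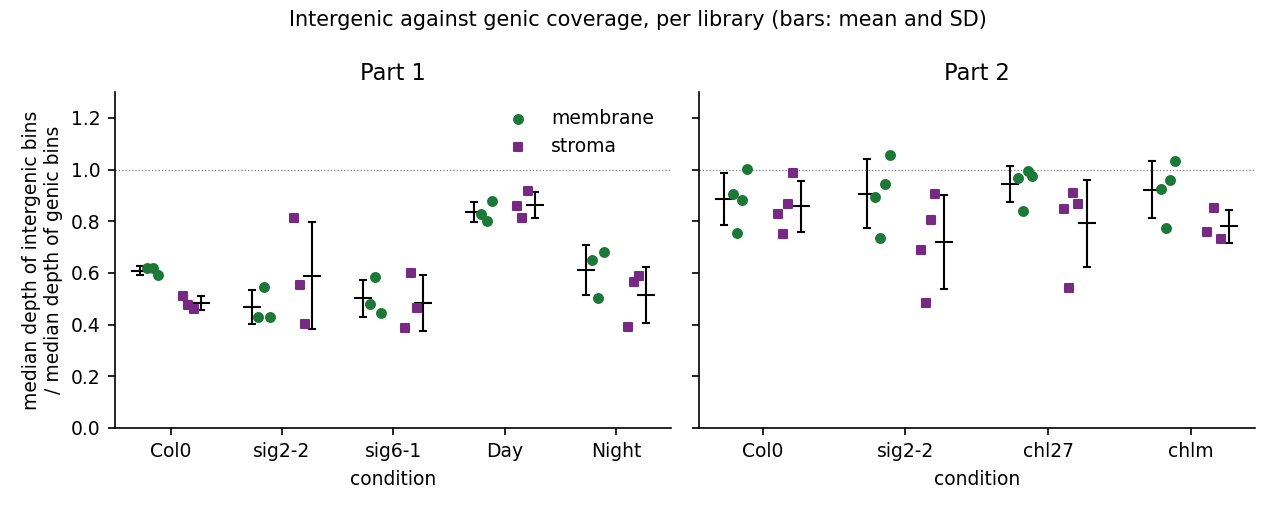
Median scaled depth of the 498 intergenic bins divided by that of the 1182 genic bins of the large single-copy region, 1 point per library, membrane and stroma side by side for each condition of both parts, with mean and SD. The Col0 groups of part 1 do not overlap, and the sig2-2 stroma libraries of part 1 spread from 0.404 to 0.812.

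Wild-type seedlings showed more scaled depth in the membrane fraction next to tRNA genes and upstream of a few photosynthesis genes, while lower bins were scattered over many spacers at a share below that of all bins. In Col0 of part 1, 64 intergenic bins were called higher in membrane and 88 lower. That is 12.9% and 17.7% of the 498, beside 12% and 34.9% of all 2591 bins (46.9% in either direction) and 6.77% and 38.2% of genic bins. The median log2 difference was -0.08 for intergenic, -0.29 for genic and -0.27 for all bins. When libraries were scaled to their median bin instead of their mean, which moved all Col0 values up by 0.35, the counts became 119 higher and 21 lower. The share of higher calls was then 85.0% in place of 42.1%. All bins turned the same way, to 474 higher and 184 lower. A fit on the Col0 libraries alone called 309 intergenic bins, beside 1846 of all bins. The distance of 0.22 between intergenic and genic medians is not touched by such a shift. The sign of weak differences in Col0 therefore depends on the scaling, and the bins named next keep their sign under it.

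Bins with a large membrane excess in the wild type lay upstream of trnE, psaA and rbcL, among others. The bin at 30551 to 30600, centred 38 bp upstream of trnE, had scaled depths of 1.92, 1.70 and 1.93 in the membrane libraries of Col0 in part 1 and 0.497, 0.473 and 0.470 in stroma. All membrane values lay more than 3-fold above all stroma values, and the log2 difference was 1.92 ± 0.13 (SE, limma adjusted p = 1.3e-09). The psaA bin at 42051 to 42100, 219 bp upstream of the gene of a photosystem I core protein, had 1.26, 1.36 and 1.31 in membrane and 0.469, 0.385 and 0.407 in stroma. Its log2 difference was 1.62 ± 0.15 (limma adjusted p = 1.06e-07), again with no overlap. At 54751 to 54800, 182 bp upstream of rbcL, the gene of the large subunit of Rubisco, membrane libraries had 0.686, 0.678 and 0.687 and stroma libraries 0.153, 0.136 and 0.129. Here the difference was 2.22 ± 0.43 (limma adjusted p = 0.000295).

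The whole spacer between trnL and trnF, the leucine and phenylalanine tRNA genes, was higher in membrane in Col0 of part 1, with 13 of 13 bins called. Its largest difference was at 47551 to 47600, where membrane libraries had 1.20, 1.18 and 1.08 and stroma libraries 0.199, 0.178 and 0.181, a log2 difference of 2.57 ± 0.43 (limma adjusted p = 6.34e-05). The next spacer, between trnF and ndhJ, had 5 of 8 bins called higher. Other high bins stood at trnQ, the glutamine tRNA gene, 39 bp from its start (log2 difference 1.55), at trnC, the cysteine tRNA gene, 197 bp from its start (2.01), and at trnM, the methionine tRNA gene, 30 bp from its start (1.66). At the trnQ bin, 6701 to 6750, the 3 membrane values were 1.25, 1.16 and 1.14 and the stroma values 0.427, 0.399 and 0.369, without overlap (limma adjusted p = 0.000418).

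The lower bins were more scattered: 88 bins fell into 60 separate runs in 33 spacers, against 27 runs in 24 spacers for the 64 higher bins. At 42451 to 42500, 619 bp upstream of psaA and so 400 bp beyond its high bin, membrane libraries had 0.330, 0.260 and 0.274 and stroma libraries 0.623, 0.576 and 0.669, a difference of -1.09 (limma adjusted p = 3.83e-05). A lower bin at 46001 to 46050, 198 bp upstream of rps4, had a difference of -1.06 (limma adjusted p = 0.00907), and its call was lost without Col0 membrane replicate 3 (adjusted p = 0.0506) and under median scaling (adjusted p = 0.0853). Long spacers with several lower bins were petA–psbJ (7 of 17), psbM–trnD (7 of 19), trnT–psbD (7 of 25) and rpl20–rps12 (5 of 14). Of all bins 34.9% were called lower, so these spacers lie near the share of all bins.

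In Col0 of part 2 the contrast was smaller and most of its higher bins were also called in part 1. There 27 bins were called higher and 8 lower, 5.42% and 1.61% of the members, beside 2.08% and 1.78% of all bins (3.86% in either direction). With the replicate number as a block, which the data of Col0 in part 2 back, the counts were 75 higher and 45 lower. Beside them stood 312 and 314 of all bins. Leaving out Col0 membrane replicate 2 or Col0 stroma replicate 2 gave 22 and 20 calls in place of 35. Of the 27 higher bins 25 were among the 64 of part 1 (92.6% and 39.1% of the lists), and of the 64, 62 had a positive difference in part 2 with a median of 0.45. Of the 88 lower bins 86 had a negative difference in part 2, with a median of -0.25, and 6 were called there (6.82%, or 75.0% of the 8). The trnE bin had membrane values of 1.15, 1.12, 1.07 and 1.06 and stroma values of 0.536, 0.682, 0.597 and 0.732, with no overlap and a difference of 0.79 ± 0.10 (limma adjusted p = 2.37e-05). In the trnL–trnF spacer 11 of 13 bins were called higher. The psaA bin had 1.07, 1.01, 0.993 and 1.09 in membrane and 0.580, 0.510, 0.607 and 0.644 in stroma, which do not overlap, and a difference of 0.82 (limma adjusted p = 0.0206). That call was lost without Col0 membrane replicate 1 or Col0 stroma replicate 2 (adjusted p up to 0.0813). At 59501 to 59550, 246 bp upstream of ycf4, a photosystem I assembly gene, membrane libraries had 1.11, 0.887, 1.10 and 1.19 and stroma libraries 1.31, 1.63, 1.33 and 1.42. This bin was lower in membrane by -0.41 (limma adjusted p = 0.0233, lost without Col0 membrane replicate 2 or Col0 stroma replicates 2 or 4), and it was called lower in 5 of 9 conditions. The rbcL bin, the second largest in part 1, had a difference of 0.53 and was not called (limma adjusted p = 0.4).

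The calls of Col0 in part 1 differed with the distance to the nearest gene start. Of 157 bins centred 1 to 150 bp upstream of a start, 29 were called higher and 16 lower (18.5% and 10.2%, beside 12% and 34.9% of all bins). From there to 300 bp the counts were 16 and 23 of 119 (13.4% and 19.3%), and from 300 to 600 bp they were 8 and 29 of 119 (6.72% and 24.4%). The median log2 difference was 0.06, -0.13 and -0.24 in these classes, 0.04 in the 41 bins beyond 600 bp and -0.14 in the 62 bins flanked by gene ends only. The order of the first 3 classes was the same under median scaling, with medians of 0.41, 0.22 and 0.11. In part 2 the higher and lower calls of Col0 were 12 and 2 up to 150 bp, 7 and 3 from there to 300 bp and 6 and 1 from 300 to 600 bp. Of all bins, 2.08% were called higher and 1.78% lower there. The higher calls near starts in part 1 were mostly those of tRNA genes. In the split by gene boundary given below, 20 of 46 bins at tRNA starts were higher. At starts of protein genes 6 of 95 were (6.32%), a share under that of all bins.

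**Figure D2:**
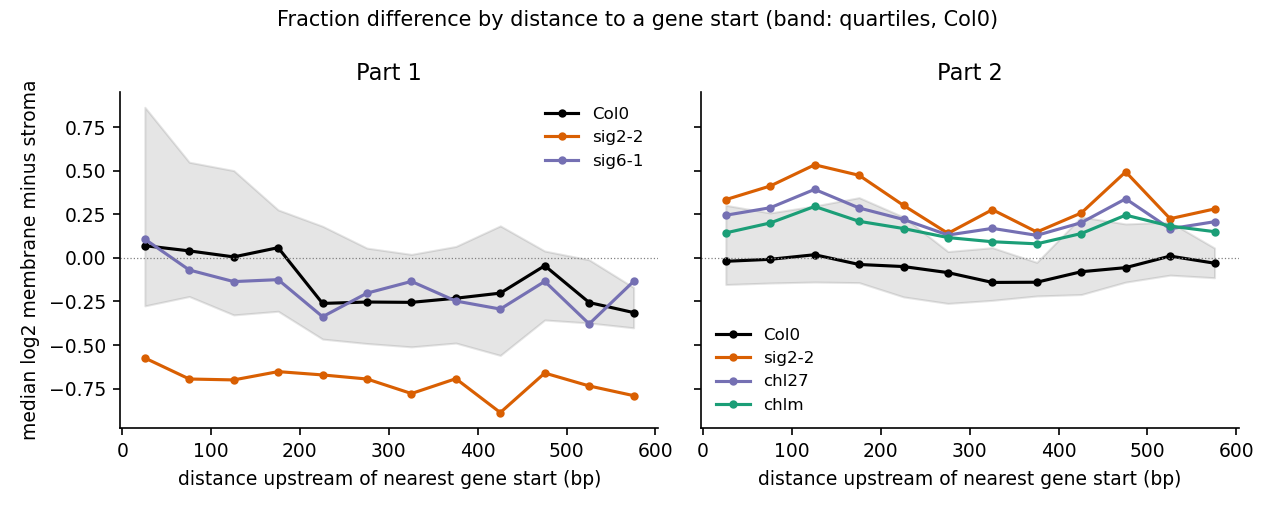
Median log2 difference of membrane minus stroma (vertical axis) in 50-bp steps of distance upstream of the nearest gene start (horizontal axis, bp), for the seedling conditions of each part; the band spans the quartiles of Col0. In Col0 of part 1 the median was 0.07 at 1 to 50 bp and -0.26 between 200 and 250 bp, and sig2-2 lies below 0 throughout in part 1 and above 0 throughout in part 2.

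Calls also differed with the kind of gene. Grouped by the gene with the nearest start, and read beside the 12% higher and 34.9% lower of all bins, bins of tRNA genes had 39 higher and 8 lower calls of 121 in Col0 of part 1 (32.2% and 6.61%), with a median of 0.26. Photosynthesis genes had 16 and 31 of 166 (9.64% and 18.7%), ribosomal protein genes 2 and 18 of 64 (3.12% and 28.1%), and the genes rpoB, rpoC1, rpoC2, accD and clpP together, which code for polymerase subunits, fatty acid synthesis and a protease, had 6 of 32, all lower (18.8%). ATP synthase genes had 10 of 29, all lower (34.5%, near the share of all bins), and 4 lower and no higher call under median scaling. Bins of NDH genes, which code for the plastid NADH dehydrogenase-like complex, had none of 17 called with the mean and 6 higher under median scaling. In part 2 the 121 bins of tRNA genes had 21 calls in Col0, all higher (17.4%), with a median of 0.32.

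A split by the nearest gene boundary within 150 bp, chosen after values were seen, showed that both flanks of tRNA genes shared the membrane excess. Of 46 bins at tRNA starts, 20 were called higher and 1 lower in Col0 of part 1 (43.5% higher, median 0.64), and of 39 bins at tRNA ends 16 and 1 (41.0% higher, median 0.56). The flanks of protein genes had 6 higher and 14 lower of 95 at starts (median -0.11) and 2 and 21 of 90 at ends (median -0.16). The 228 bins with no boundary within 150 bp had 20 and 51 (median -0.20). Of all bins 12% were called higher and 34.9% lower, with a median of -0.27. Lower calls at protein starts, at protein ends and away from boundaries (14.7%, 23.3% and 22.4%) were thus under the share of all bins. In part 2 the tRNA flanks of Col0 had 9 of 46 called at starts and 5 of 39 at ends, all higher (19.6% and 12.8%, beside 2.08% of all bins). Within 300 bp of a start, the 45 higher bins of part 1 belonged to 21 genes, of which 5 were protein genes: psaA, psbA, psbB, psbE and rbcL.

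In the sig2-2 mutant the intergenic bins moved in opposite directions in the 2 parts. In part 1, 8 bins were called higher in membrane and 241 lower (1.61% and 48.4%, beside 7.8% and 42.6% of all bins and 50.4% in either direction), with a median of -0.67 for intergenic and -0.34 for genic bins. Under median scaling, with a shift of all bins of 0.36, 23 were higher and 65 lower, beside 377 and 231 of all bins. Higher calls then made up 26.1% of the intergenic calls in place of 3.21%. The count of 249 fell to 101 without sig2-2 stroma replicate 1, to 121 without membrane replicate 1 and to 139 without membrane replicate 3. A fit on the sig2-2 libraries of part 1 alone called 0 intergenic bins, so the 249 calls rest on the spread pooled over all conditions. In part 2, 4 bins were called, all higher (0.803%, beside 0.425% of all bins higher, 0.772% lower and 1.2% in either direction), and the intergenic median was 0.30 against -0.02 for genic bins. There the replicate block gave 221 higher and 12 lower, beside 533 and 320 of all 2591 bins. Leaving out sig2-2 stroma replicate 4 gave 189 calls, while a fit on the sig2-2 libraries alone gave 0. Of the 241 bins lower in part 1, 183 had a positive difference in part 2. The direction of the intergenic median is therefore opposite in the 2 sets of sig2-2 libraries. The ratios of intergenic to genic depth given above summarise the same depths and are no separate support. Their membrane and stroma values overlap in sig2-2 of both parts.

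The 4 bins higher in sig2-2 of part 2 were all among the 8 of part 1, and they stood upstream of psaA and psbE, the gene of a cytochrome b559 subunit of photosystem II. At the psaA bin the membrane libraries of sig2-2 in part 1 had 1.06, 1.10 and 1.04 and the stroma libraries 0.676, 0.453 and 0.355, without overlap, a difference of 1.15 (limma adjusted p = 5.72e-05). In part 2 they had 1.22, 1.17, 1.29 and 1.21 against 0.534, 0.302, 0.496 and 0.741, a difference of 1.29 (limma adjusted p = 0.000687). These values stand beside those of Col0 above and lie on the same side. The lowest bin of sig2-2 in part 1 was at 30651 to 30700, 138 bp upstream of trnE, with a difference of -2.42 (limma adjusted p = 0.00329), and it lay in a run of 14 lower bins reaching from 30601 to 31300. Membrane libraries had 0.0199, 0.0782 and 0.123 there and stroma libraries 0.605, 0.284 and 0.285, against 0.119, 0.150 and 0.0928 and 0.134, 0.174 and 0.151 in Col0. The sig2-2 fractions do not overlap and the Col0 fractions do. At 29751, the bin of highest depth beside trnD, sig2-2 membrane libraries had 2.39, 2.21 and 1.81 and stroma libraries 1.23, 1.55 and 1.63, a difference of 0.54 (limma adjusted p = 0.00511).

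Farther upstream of psaA the 2 sets of sig2-2 libraries parted. At 42301 to 42350, 469 bp upstream of psaA and 250 bp beyond its high bin, sig2-2 had a log2 difference of -1.91 in part 1 (limma adjusted p = 0.015), lost without sig2-2 stroma replicate 1 or membrane replicate 1 and under median scaling (adjusted p = 0.0585). In part 2 it had 1.55 (limma adjusted p = 0.137), called with the replicate block (adjusted p = 0.000484). The profiles upstream of psaA, psbE, rbcL and trnE are drawn below, and their order was not tested.

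**Figure D3:**
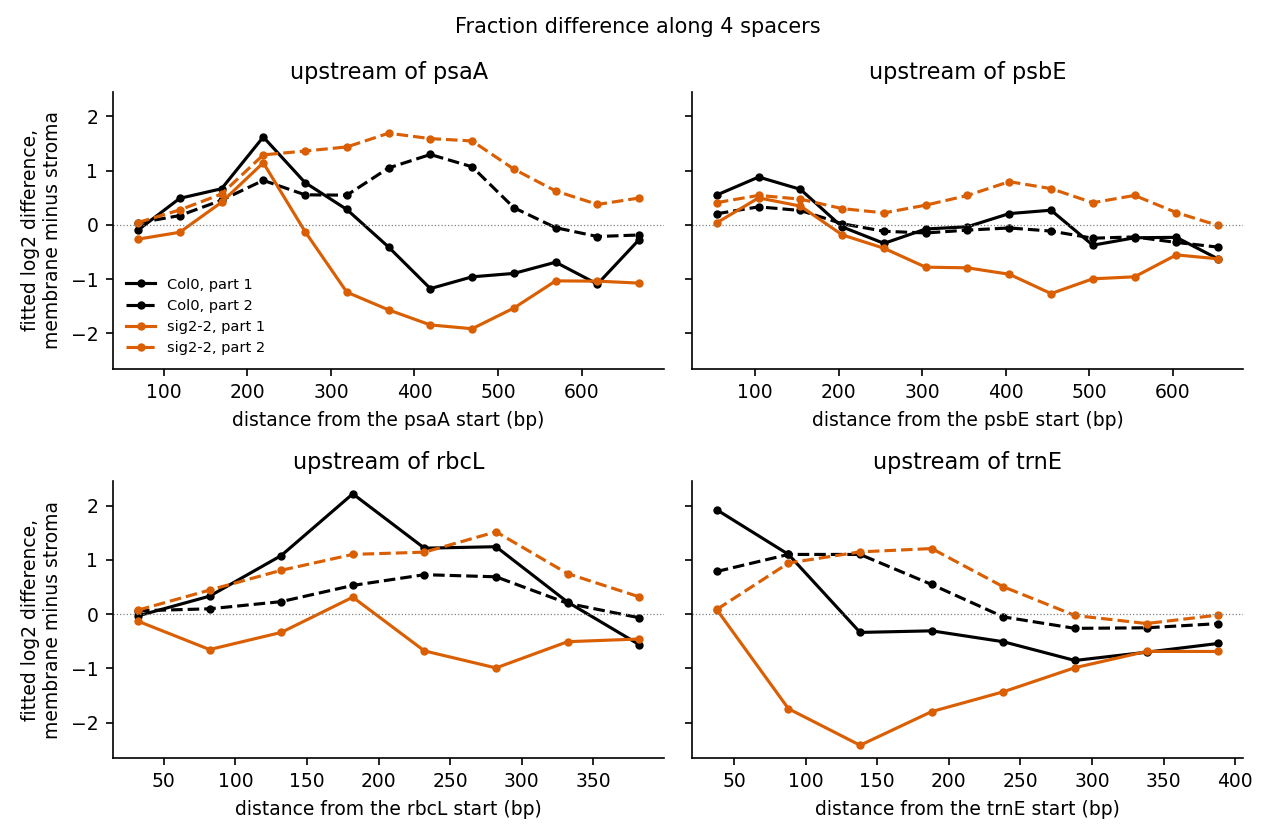
Fitted log2 difference of membrane minus stroma (vertical axis) for each intergenic bin against its distance from the gene start (horizontal axis, bp) upstream of psaA, psbE, rbcL and trnE, for Col0 and sig2-2 of both parts. At the psaA bin 219 bp upstream the 4 lines lie between 0.82 and 1.62, while at 469 bp sig2-2 has -1.91 in part 1 and 1.55 in part 2.

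At trnE the membrane excess of the wild type was not seen in sig2-2. At the bin 38 bp upstream, sig2-2 membrane libraries of part 1 had 0.757, 0.914 and 0.638 and stroma libraries 0.679, 0.790 and 0.693, overlapping, with a difference of 0.08 (limma adjusted p = 0.6). The difference from Col0 was -1.84 ± 0.19 (limma adjusted p = 2.95e-06). In part 2 the membrane values were 0.905, 0.752, 0.924 and 0.996 and the stroma values 0.749, 0.834, 0.777 and 1.01, also overlapping, and the difference from Col0 was -0.70 ± 0.14 (limma adjusted p = 0.0179). That second call was lost without any 1 of Col0 membrane replicate 1, Col0 stroma replicates 1 and 3 and sig2-2 membrane replicate 1, with adjusted p up to 0.0676.

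**Figure D4:**
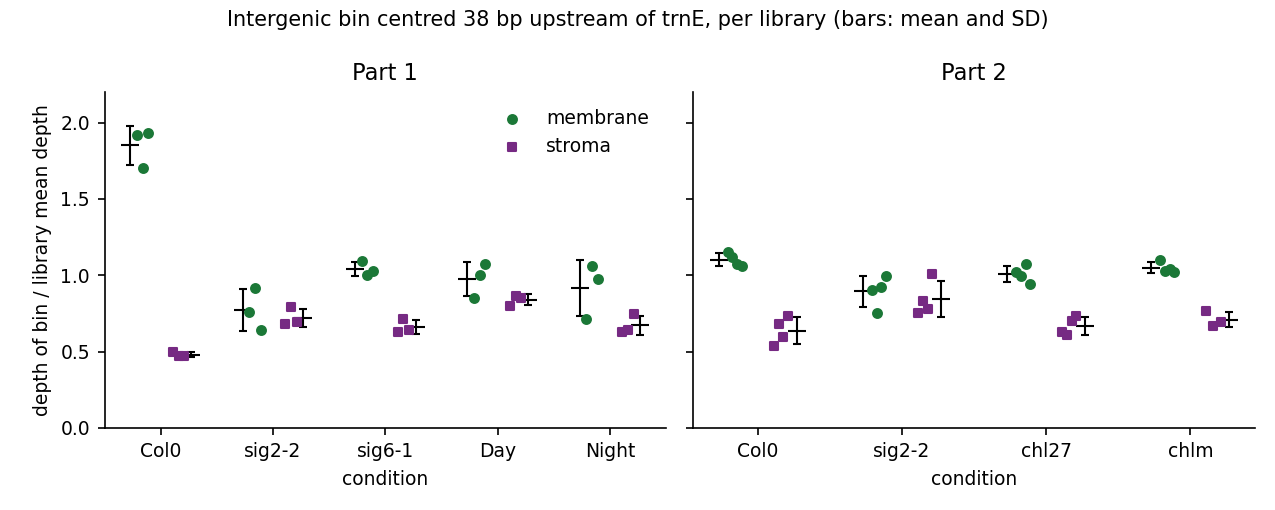
Scaled depth of the intergenic bin centred 38 bp upstream of trnE in every library, membrane and stroma for each condition of both parts, with mean and SD. Col0 membrane libraries of part 1 lie between 1.70 and 1.93, and the sig2-2 fractions overlap in both parts.

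The bins whose contrast differed between sig2-2 and Col0 in part 1 lay mostly near tRNA genes. There were 21 such bins, all lower in sig2-2 (4.22%, beside 1.35% of all bins lower and 1.51% in either direction), and 15 of them had a tRNA gene as the nearest start. With median scaling the count was 48, beside 92 of all bins, and in a fit on the sig2-2 and Col0 libraries alone it was 1. It was 45 without sig2-2 membrane replicate 2, 122 without sig2-2 stroma replicate 3 and 13 without sig2-2 membrane replicate 3. The 21 bins fell in 9 spacers, with 5 in trnL–trnF, 4 in trnD–trnY, 4 in trnF–ndhJ and 2 each in trnE–trnT and trnfM–rps14. At trnM, 52001 to 52050, sig2-2 membrane libraries had 0.334, 0.514 and 0.219 and stroma libraries 0.729, 0.500 and 0.390, which overlap, while Col0 had 0.982, 1.04 and 0.968 against 0.299, 0.293 and 0.331. The difference between the contrasts was -2.29 ± 0.42 (limma adjusted p = 0.00393). In part 2 the same difference was 0.15 and was not called (limma adjusted p = 0.84).

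In part 2 a pair of bins differed between sig2-2 and Col0, the trnE bin and the bin at 47751 to 47800 in the trnL–trnF spacer, both lower in sig2-2 (0.154% of all bins were called lower). At the second, Col0 had 0.934, 1.06, 1.02 and 0.929 in membrane and 0.705, 0.790, 0.720 and 0.652 in stroma, and sig2-2 had 0.883, 1.02, 1.01 and 0.934 against 1.03, 1.05, 1.05 and 1.00. The Col0 fractions do not overlap and those of sig2-2 do, with the stroma values mostly above. The difference between the contrasts was -0.56 (limma adjusted p = 0.0119), lost without sig2-2 membrane replicate 1 (adjusted p = 0.0506), and the same bin had -0.68 in part 1 (limma adjusted p = 0.0404). The part 1 call was lost without any 1 of the 6 Col0 libraries, sig2-2 stroma replicate 2 or sig2-2 membrane replicate 3 (adjusted p up to 0.123). Both bins were thus called in both parts. With the replicate block the count was 34 higher and 13 lower, beside 111 higher and 202 lower of all 2591 bins. All bins thus leaned lower in that fit while the intergenic bins leaned higher. Of the 19 spacers with 10 bins or more, trnL–trnF had a median difference from Col0 of -0.45 in part 2 while the other 18 had positive medians. The same spacer had the only negative median of the 19 in chl27 (-0.27) and in chlm (-0.16) against Col0, so this is not particular to sig2-2. In part 1 its median for sig2-2 was -0.68, near the -0.64 of all intergenic bins.

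In sig6-1, 12 bins were called higher and 41 lower (2.41% and 8.23%, beside 3.94% and 11.5% of all bins and 15.4% in either direction), and the median was -0.13. Under median scaling, with a shift of 0.16, the counts were 28 and 15, beside 163 and 75 of all bins. Higher calls were then 65.1% of the intergenic calls in place of 22.6%. The data of sig6-1 back the replicate block for replicates 1 and 2 and less clearly for replicate 3. With it the counts were 23 and 62, beside 173 and 394 of all bins. Among the lower bins, the one at 32101 to 32150, 585 bp upstream of psbD, had 0.423, 0.437 and 0.425 in membrane and 0.600, 0.729 and 0.816 in stroma, without overlap (-0.72, limma adjusted p = 0.00439). Without sig6-1 membrane replicates 1 or 3 or stroma replicate 2, 35, 24 and 30 bins were called in place of 53, and a fit on the sig6-1 libraries alone called 0. The trnE bin kept a smaller membrane excess, with 1.09, 1.00 and 1.03 in membrane and 0.625, 0.711 and 0.641 in stroma. These values did not overlap, the difference was 0.66 (limma adjusted p = 0.00273), and it was lower than in Col0 by a log2 difference of -1.27 (limma adjusted p = 0.000542).

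At the trnL end of the trnL–trnF spacer, 47501 to 47550, the contrast of the wild type was not seen in sig6-1. Col0 had 1.91, 1.79 and 1.83 in membrane and 0.627, 0.684 and 0.738 in stroma, while sig6-1 had 0.750, 0.672 and 0.782 and 0.699, 0.727 and 0.877. The sig6-1 fractions overlap, and the difference from Col0 was -1.48 ± 0.15 (limma adjusted p = 2.45e-06). In sig2-2 of part 1 the same bin kept a difference of 1.07 (limma adjusted p = 1.55e-06). In all, 9 bins differed between sig6-1 and Col0, all lower (1.81%, beside 0.849% of all bins lower and 0.888% in either direction). The count was 21 under median scaling and 15 in a fit on the libraries of both genotypes alone, beside 45 and 56 of all bins. By nearest start, 5 of the 9 belonged to tRNA genes and 1 to a photosynthesis gene, and 3 lay between gene ends. Between trnF and ndhJ, at 48401 to 48450, Col0 had 1.03, 1.20 and 1.31 in membrane and 0.383, 0.427 and 0.468 in stroma, and sig6-1 had 0.462, 0.523 and 0.455 and 0.436, 0.608 and 0.445. The fractions are apart in Col0 and overlap in sig6-1, a difference of -1.48 ± 0.29 (limma adjusted p = 0.00709). The photosynthesis gene was psaA, where the bin at 42001 to 42050 differed from Col0 by -0.85 (limma adjusted p = 0.00183).

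Leaves of 14-day-old plants had few higher intergenic bins in the light. In Day, 1 bin was called higher and 42 lower (0.201% and 8.43%, beside 7.41% and 8.72% of all bins and 16.1% in either direction), with a median of -0.25 for intergenic and -0.24 for genic bins. Under median scaling, with a shift of 0.13, the counts were 20 and 21, beside 271 and 84 of all bins. Higher calls were then 48.8% of the intergenic calls in place of 2.33%. With the replicate block, which the data of Day back, the counts were 10 and 70, beside 227 and 420 of all bins. The count of 43 was 22 without Day stroma replicate 1, Day membrane replicate 2 or Day membrane replicate 3, and 13 without Day stroma replicate 3. A fit on the Day libraries alone called 184, beside 1101 of all bins. The lower bins gathered in petA–psbJ (8 of 17), between genes of the cytochrome b6f complex and photosystem II, and in atpF–atpH, between ATP synthase genes, with 4 of 9. At 63301 to 63350 in the first of these, Day membrane libraries had 0.775, 0.688 and 0.670 and stroma libraries 1.13, 1.03 and 1.07, without overlap (-0.59, limma adjusted p = 0.00201). At 65451 to 65500, 236 bp upstream of petL, a small cytochrome b6f subunit gene, they had 0.617, 0.702 and 0.695 and 0.989, 0.992 and 1.13 (-0.62, limma adjusted p = 0.00141). The trnE bin had 0.850, 0.999 and 1.07 in membrane and 0.797, 0.865 and 0.851 in stroma, which overlap.

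After 24 h of darkness the called intergenic bins were a pair, both higher in membrane (0.0772% of all bins were called higher and 0.116% in either direction) and both far upstream of psbD, the gene of a photosystem II core protein known for a light-responsive promoter well before its start. At 31701 to 31750, 985 bp upstream, Night membrane libraries had 1.80, 1.31 and 1.42 and stroma libraries 0.603, 0.822 and 0.780. All membrane values lay above all stroma values, with a difference of 1.03 ± 0.14 (limma adjusted p = 0.000348), and the call held without any single library. It was lost with the replicate block, for which the Night libraries gave no ground (adjusted p = 0.074), and in a fit on the Night libraries alone (adjusted p = 0.66), and both of these fits called 0 intergenic bins in Night. Day leaves had 1.46, 1.14 and 1.05 in membrane and 1.02, 1.01 and 1.06 in stroma, which overlap. Seedlings of Col0 in part 1 had 0.796, 0.842 and 0.824 against 0.802, 0.717 and 0.782. The neighbouring bin at 31651 had a Night difference of 1.00 (limma adjusted p = 0.0121), lost without Night stroma replicates 1 or 2 or Night membrane replicate 1 (adjusted p up to 0.168). Leaving out Night stroma replicates 1 or 2 or Night membrane replicate 1 left 1 call in place of 2, and leaving out Night membrane replicate 3 gave 6.

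Night and Day contrasts differed at 2 intergenic bins (0.386% of all bins were called higher, 2.32% lower and 2.7% in either direction). The psbD bin at 31701 was higher in Night by 0.80 ± 0.19 (limma adjusted p = 0.0338). The bin at 48001 to 48050, 149 bp upstream of trnF, was lower by -0.58 (limma adjusted p = 0.0457). Day had 1.17, 1.29 and 1.29 in membrane and 0.991, 1.03 and 0.811 in stroma there, while Night had 1.20, 1.31 and 1.18 against 1.52, 1.39 and 1.27. The first call was lost without any library other than Day membrane replicate 1, Day stroma replicate 2, Night membrane replicate 2 and Night stroma replicate 3, with adjusted p up to 0.117. The second was lost without any library other than the last 3 of these. Neither was called under median scaling or in a fit on the Day and Night libraries alone. The fractions of the psbD bin still separate in Night in every library.

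**Figure D5:**
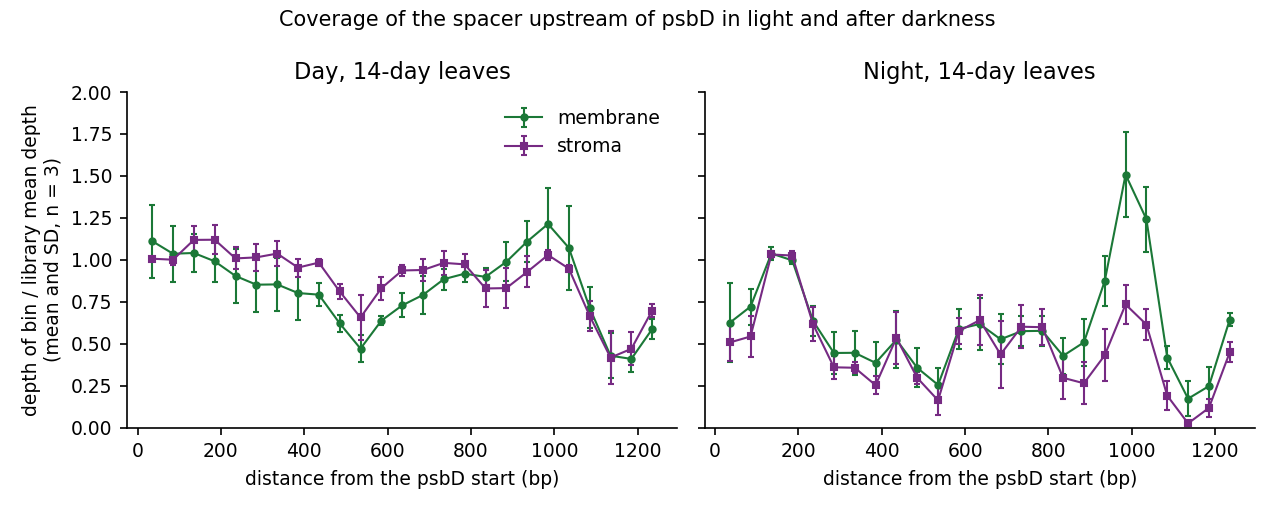
Scaled depth of the bins upstream of psbD against distance from its start (bp) in Day and Night leaves, as mean and SD of 3 libraries for membrane and stroma. The Night fractions lie apart at 985 bp, where membrane libraries are between 1.31 and 1.80 and stroma libraries between 0.603 and 0.822.

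In the chlorophyll synthesis mutants of part 2 the called intergenic bins were higher in membrane, and no difference from Col0 passed the test. In chl27 5 bins were called, all higher (1.0%, beside 0.309% of all bins higher, 0.27% lower and 0.579% in either direction), and in chlm 15, all higher (3.01%, beside 1.08% higher, 0.579% lower and 1.66% in either direction). With the replicate block these were 104 higher and 2 lower in chl27, beside 149 and 103 of all bins. In chlm they were 58, all higher, beside 83 higher and 37 lower of all bins. Fits on each mutant's own libraries called 0. In chl27, 2 calls were left without membrane replicates 1, 3 or 4 or stroma replicate 2 and 3 without stroma replicate 3. In chlm, 7 to 9 were left without membrane replicates 1 or 3 or stroma replicates 2 or 4. Of the 15 in chlm, 9 had a tRNA gene as nearest start and 5 lay in trnL–trnF. At trnE, chl27 had 1.02, 0.993, 1.07 and 0.944 in membrane and 0.630, 0.610, 0.701 and 0.734 in stroma, and chlm had 1.10, 1.03, 1.04 and 1.02 against 0.764, 0.666 and 0.695. Neither pair of fractions overlaps. The trnE bin was higher in membrane in chl27 by 0.59 (limma adjusted p = 0.00297) and in chlm by 0.56 (limma adjusted p = 0.00502). Against Col0 no intergenic bin was called by limma in either mutant. An unadjusted p under 0.05 was found for 8 and 6 of the 498, a smaller share than that threshold passes when nothing differs. For the trnE bin the differences from Col0 were -0.20 ± 0.14 and -0.23 ± 0.14, so a change of that size was not resolved.

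A few bins were called higher again and again. The psbE bin at 64451 to 64500, 154 bp upstream, was called in 7 of 9 conditions, with differences of 0.66 in Col0, 0.35 in sig2-2 and 0.54 in sig6-1 of part 1 and of 0.27, 0.48, 0.32 and 0.24 in Col0, sig2-2, chl27 and chlm of part 2. In Col0 of part 1 its membrane libraries had 1.23, 1.53 and 1.31 and its stroma libraries 0.918, 0.792 and 0.855, without overlap. In sig2-2 of part 2 the membrane libraries all lay between 1.18 and 1.20 and the stroma libraries between 0.799 and 0.916. The call in sig2-2 of part 1 was lost without sig2-2 stroma replicates 1 or 3 or membrane replicate 1 (adjusted p up to 0.0904). The chlm call (limma adjusted p = 0.0296) was not held with the replicate block (adjusted p = 0.058), nor without chlm membrane replicates 1, 2 or 4 or stroma replicates 3 or 4. The neighbouring psbE bin and the psaA bins at 42001 and 42051 were called in 6 conditions, and the bins at trnQ, trnE and the tRNA gene ArthCt100 in 5. In Day and Night leaves none of these was called. Of the 498 bins, 70 were called higher in at least 1 condition, 263 lower in at least 1, 8 in both directions and 173 never.

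Among the bins just upstream of 37 listed starts (12 of photosynthesis, 12 of tRNA and 6 of ribosomal protein genes, 2 each of ATP synthase and NDH genes, and rpoB, accD and clpP), most were not called. In sig2-2 of part 1, 1 was higher and 10 lower, beside 7.8% and 42.6% of all bins. In sig6-1 there were 3, all higher, beside 3.94% higher and 11.5% lower of all bins. Col0 of part 2 had 2 higher and 1 lower, beside 2.08% and 1.78%. In Col0 of part 1, 6 were higher and 4 lower, beside 12% and 34.9% of all bins. The 6 stood at psbA, the gene of the D1 protein of photosystem II (0.86, limma adjusted p = 0.000211), and at trnQ, trnE, trnT, trnV and trnM. The 4 lower stood at rps2, a ribosomal protein gene, and at rpoB, psbM and psbD. The calls at rpoB and psbD were lost when single Col0 libraries were left out, at rpoB without stroma replicate 1 or membrane replicate 2 and at psbD without any 1 of the 6. Under median scaling those at rps2, rpoB and psbD were not called (adjusted p = 0.509, 0.566 and 0.523). The bin directly before psbD had a difference of -0.50 in Col0 seedlings of part 1 (limma adjusted p = 0.0424), beside a median of -0.27 for all bins. As that call was lost in each of the checks just given, it is weak. The far upstream bin of psbD was not called there.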

How the data were processed

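The deposited values are coverage depth per position of the plastid genome, 1 column per library and whole numbers, in TAIR10 coordinates per the file headers. The submitters' processing notes name Trim Galore 0.4.1, Bowtie2 2.2.8.9 and bedtools 2.25.0. How duplicates and reads shared by both repeat copies were handled is not given in the sources used here. Coverage is no count of fragments, so no count model was used and no counting interval was computed. The chlm stroma replicate 1 column of part 2 holds a running position and was not used (1 column in all).

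Depth was averaged in 50-bp bins, divided by the library mean, and log2(value + 0.01) was tested with limma 3.58.1 in R 4.3.3. Tables and figures used Python 3.11.15, numpy 2.4.6, pandas 2.3.3 and matplotlib 3.10.9. The code was tested on simulated data. Gene bounds came from a gene table of assembly TAIR10.1 with 129 plastid entries. Its mirror axis, 238649, equals that of the coverage. The table gives no strand, so gene starts rest on strands known for this genome, and a bin belongs to the start it lies upstream of. No genome sequence was used here.

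Named bins were, for each fraction contrast, the 3 highest and 3 lowest called bins whose fractions do not overlap, at most 1 per spacer and direction. For each difference between conditions they were the 2 highest and 2 lowest called bins. The bins nearest upstream of listed genes and the spacers of 10 bins or more were added. Other bins named were chosen after their values were seen. A named bin is not reported here. The members and lists were chosen with earlier results of these data known.

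Same-numbered membrane and stroma libraries deviated together in every condition of part 2 (correlations of 0.142 to 0.906), in sig6-1 (0.283 to 0.873) and in Day (0.423 to 0.625). There the numbers were taken to pair the libraries, from the data and not from a label. The pairing is uncertain for some numbers. The membrane libraries of chl27 replicate 1, chlm replicate 4 and sig2-2 replicate 1 of part 2 and of sig6-1 replicate 3 correlated more with a stroma library of another number. Alternatives were median scaling, a pseudocount of 0.1, leaving out low bins, tiling from row 26, a replicate block, fits on a condition's own libraries, and leaving out each library.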

Additional observations from a re-analysis of the deposited data

Results flagged for a closer look

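Within groups of 4 libraries, 5 values stood far from the other 3 of their group, among 40 such groups checked, where chance alone marks about 1 in 20. The ratio of intergenic to genic depth was 0.839 in 1 chl27 membrane library and 0.541 in 1 chl27 stroma library of part 2. In the trnL–trnF spacer, the bin at 47501 had a scaled depth of 0.636 in 1 Col0 stroma library and of 0.927 in 1 chlm membrane library of part 2. The bin at 46301 near the tRNA gene ArthCt100 had 0.816 in 1 chl27 membrane library.

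At named bins, contrasts of membrane and stroma differed between conditions by limma's test of the difference. In part 1 sig2-2 differed from Col0 by a log2 difference of -1.84 at the trnE bin 30551, of -2.84 at the next bin, 30601, and of -2.29 at the trnM bin 52001. For sig6-1 the differences from Col0 were -1.27 at 30551, -1.48 at 47501 and -1.48 at 48401, between trnF and ndhJ. Night differed from Day by 0.8 at 31701 upstream of psbD and by -0.58 at 48001. In part 2 sig2-2 differed from Col0 by -0.7 at 30551 and by -0.56 at 47751. The call at 30601 was lost without any library other than sig2-2 membrane replicate 2 and sig2-2 stroma replicates 2 and 3. Those at 52001, 47501 and 48401 held without every single library. The causes of these differences were not tested.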

How the results depend on the processing

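No bin chosen by the naming rule changed the sign of its difference under an alternative. The balance of higher and lower calls did turn, under median scaling in Col0 of part 1 (64 higher and 88 lower to 119 and 21) and in sig6-1 (12 and 41 to 28 and 15), and with the replicate block for sig2-2 against Col0 in part 2 (0 and 2 to 34 and 13). Median scaling also turned it over all 2591 bins, from 312 and 903 to 474 and 184 in Col0 of part 1. In sig6-1 all bins went from 102 and 298 to 163 and 75. The block did not turn it over all bins for sig2-2 against Col0 (0 and 4 to 111 and 202). With median scaling, the calls in part 1 were 88 in sig2-2, 4 in Night, 48 for sig2-2 against Col0, 21 for sig6-1 against Col0 and 0 for Night against Day, and in part 2 they were 10 in sig2-2, 10 in chl27 and 23 in chlm. Fits on a condition's own libraries gave 309 in Col0, 0 in sig2-2, 0 in sig6-1, 184 in Day and 0 in Night of part 1, then 1, 15 and 0 for the differences, and 0 in sig2-2, chl27, chlm and for sig2-2 against Col0 in part 2. Where such a limma fit gave 0, 127 bins in sig2-2, 101 in sig6-1, 78 in Night and 110 for Night against Day of part 1, and 68 in sig2-2, 75 in chl27, 99 in chlm and 29 for sig2-2 against Col0 of part 2, had an unadjusted p under 0.05. The threshold of 0.05 also passes that share of bins that do not differ, and 29 of the 498 lies near it. The cause of the changes in call counts was not tested. A pseudocount of 0.1 left 1 call for Night against Day. Tiling from row 26 gave 8 in sig2-2, 3 in chl27 and 9 in chlm of part 2. Leaving out bins with low depth moved no count by over 1.5 times.

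The replicate block gave 85 calls in sig6-1, 80 in Day, 120 in Col0 of part 2, 233 in sig2-2, 106 in chl27 and 58 in chlm of part 2 and 47 for sig2-2 against Col0 there. Over all 2591 bins these were 567, 647, 626, 853, 252, 120 and 313, in the same order. Numbers did not pair the libraries of Col0, sig2-2 and Night in part 1, where at least 1 number of each group had a correlation of 0.1 or less. In those groups the block gave 0 in Night (119 at an unadjusted p under 0.05), 72 for sig2-2 against Col0 and 4 for Night against Day. Over all bins the differences had 210 and 185. Among bins chosen by the naming rule the block ended 2 calls, at 31701 in Night (adjusted p = 0.074) and for Night against Day there (adjusted p = 0.0535). Of bins named after their values were seen, it also ended those at 31651 in Night (adjusted p = 0.0794) and at 64451 in chlm (adjusted p = 0.058).

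Leaving out single libraries gave 115 to 134 calls in Col0, 101 to 372 in sig2-2, 24 to 64 in sig6-1, 13 to 29 in Day and 1 to 6 in Night of part 1, and 13 to 122, 8 to 10 and 0 to 4 for the differences from Col0 of sig2-2 and sig6-1 and for Night against Day. In part 2 it gave 20 to 35, 4 to 189, 2 to 6 and 7 to 14 in Col0, sig2-2, chl27 and chlm, and 0 to 4 for sig2-2 against Col0. Among such refits of calls at bins of the naming rule, 484 were kept and 141 lost. Depth limits the bins at the bottom of the scale, where the pseudocount sets the size of a difference.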
